A study of Mus musculus with 32 samples.

Results

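Mouse C2C12 cells treated with trichostatin A (TSA) were compared after 48 h and after 24 h in differentiation medium, which spans the second day. The comparison rests on 4 arrays, 2 of TSA-treated cells at 48 h and 2 of TSA-treated cells at 24 h, picked by the treatment and hour in their labels, out of 20 arrays of the TSA arm and 32 of the series. Control cells of the same line, without TSA, gave 2 arrays at 48 h and 2 at 24 h, and stand beside the treated cells for the same interval. The other 12 arrays of the TSA arm, at 0 h in growth medium and at 4 and 12 h in differentiation medium, entered the fit for the spread of each probe set and are used for time courses. C2C12 is an established line of mouse skeletal myoblasts, so every group shares 1 line, and the labels of these groups name no allele or transgene. Total RNA was hybridised to Affymetrix arrays. The labels do not state the dose of TSA, when it was added or whether it was removed, and they do not say that the arrays of a group came from separate cultures, so a p-value here reflects only how far these arrays spread, which may be technical.

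TSA blocks the zinc-dependent histone deacetylases, enzymes that remove acetyl groups from histones and from other proteins, among them regulators of muscle genes. Myoblasts moved to differentiation medium leave the cell cycle, switch on myogenin and the MEF2 factors, and then the genes of the contractile apparatus, and fuse into myotubes. Contractile genes are among the last to rise in this order. In bulk RNA, fewer cells of a type and less RNA per cell cannot be told apart.

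Every array had been scaled to nearly the same trimmed mean before deposit, and array medians ranged from 253 to 287 with 21.0% to 24.2% of probe sets at or below 0. The 2 arrays of TSA-treated cells at 48 h had a rank correlation of 0.924 with each other, and the 2 at 24 h of 0.932. The ratio of 3′ to 5′ signal of Gapdh, a sign of RNA quality, was 0.882 and 0.830 in TSA-treated cells at 48 h, against 0.800 and 0.841 at 24 h. With 2 arrays a group, their number limits the precision. A log2 change below is the difference of group means of log2(intensity + 137.7), with values below 0 set to 0, and the value after ± is its standard error. Adjusted p-values are Benjamini-Hochberg values from limma over 7453 probe sets tested, and "rose", "fell" and "passed" refer to an adjusted p under 0.05. A gene with several probe sets is given by the one of highest mean. Where the mean intensity of a group is below the 137.7 that was added, the size of a log2 change depends on that addition and is no fold. This holds in TSA-treated cells for Mb, Cav3, Ckm, Cacna1s, Tnni2, Myom2, Smyd1 and Tgfbr3 at 24 h and for Eps8, Tarbp2 and Chmp6 at 48 h, and in control cells for Cdk1 at 48 h. Genes with both arrays of a group at 0 or less at 24 h or 48 h are named where they occur. All groups share 1 estimate of spread, so p can also be too small for genes at or near 0 at 0, 4 and 12 h, such as Myh3.

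Over the second day TSA-treated cells raised the genes of the sarcomere, of calcium handling and of muscle energy metabolism and lowered those of DNA replication and mitosis. Of the 7453 probe sets, 545 rose (7.31%) and 711 fell (9.54%), which is 16.9% in all. Every list count below is to be read beside these shares. On 1 probe set per gene, 428 genes rose and 572 fell among 5636. Arrays did not overlap, higher at 48 h, for 22.8% of probe sets and, lower at 48 h, for 29.8%. The median log2 change of all tested probe sets was -0.054. All 1256 called probe sets moved the same way between the arrays whose titles carry the suffix b and between those without it. The called change is the mean of these differences on the same arrays. A shared sign thus follows largely from the selection of called probe sets, and the count is no separate evidence.

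In control cells, 586 probe sets rose (7.86%) and 819 fell (11.0%) over the same day, with a median of -0.0055. Of the probe sets that rose in TSA-treated cells, 194 also rose in control cells, which is 35.6% of the TSA calls and 33.1% of the control calls. Another 37 of the 545 fell in control cells and 314 did not pass there. Among the 711 that fell in TSA-treated cells, 326 also fell in control cells, which is 45.9% of the TSA calls and 39.8% of the control calls, while 27 rose in control cells. A direct test of the difference between the 2 changes, TSA minus control, was passed by 351 probe sets with a positive difference (4.71%) and by 235 with a negative one (3.15%), which is 7.86% in all, and the median difference of all probe sets was -0.026. Of the 545 probe sets that rose in TSA-treated cells, 174 had a change larger than in control cells by this test, 2 a smaller one, and 369 did not pass it.

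**Figure D1:**
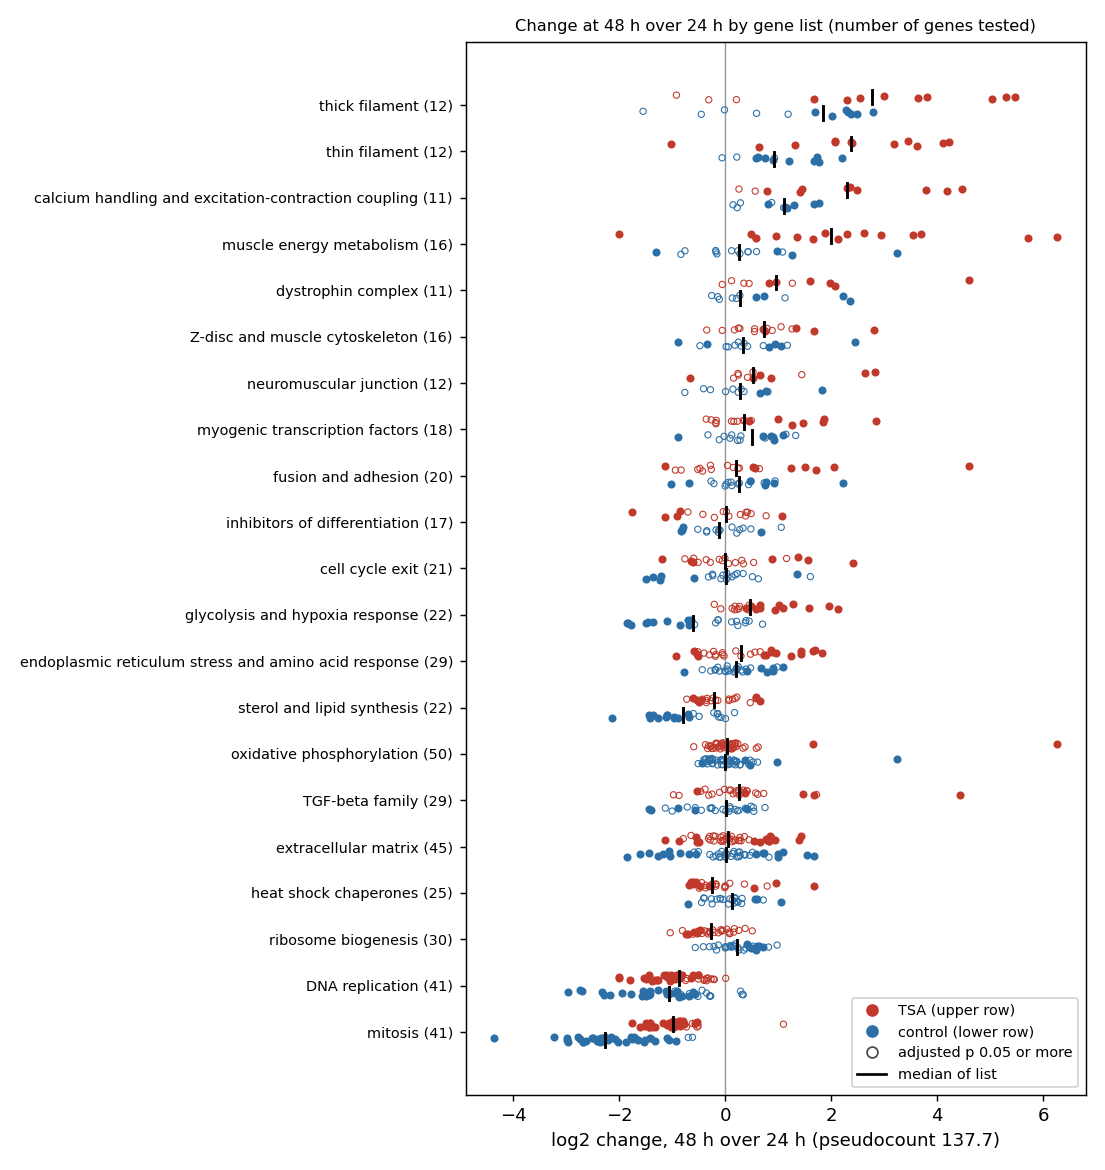
Each row is a gene list with the number of its genes tested, each point is the log2 change of 1 gene, 48 h over 24 h, filled where it passed and open where it did not, and the black bar is the list's median, in TSA-treated cells (red) above control cells (blue). The filament, calcium handling and energy metabolism lists have medians right of 0 in TSA-treated cells, at 2.01 to 2.77, and the median of the mitosis list lies left of 0 in both, further in control cells.

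The thick filament carries the myosin motors of the sarcomere, and 9 of its 12 genes tested rose in TSA-treated cells, none fell, and the median change was 2.77, beside 7.31% of all probe sets that rose. Myh3, the embryonic myosin heavy chain, had intensities of 22464 and 18066 in TSA-treated cells at 48 h, against 427 and 539.9 at 24 h, and 8661 and 7985 in control cells at 48 h, against 1572 and 1562 at 24 h. The TSA arrays at 24 h were below the control arrays of that time, and the TSA arrays at 48 h were above those of control cells. The log2 change was 5.04 ± 0.14 in TSA-treated cells (adjusted p 7.84e-11) and 2.31 ± 0.14 in control cells, and the difference was 2.73 ± 0.19 (adjusted p 3.29e-06). Myl4, an embryonic myosin light chain, had 25982 and 25169 in TSA-treated cells at 48 h, against 590.2 and 446 at 24 h, a change of 5.30 ± 0.16 (adjusted p 1.65e-10), with a difference from control of 2.51 ± 0.23. Mylpf, the fast regulatory light chain, changed by 3.0 ± 0.14 and Myom2, an M-band protein that links myosin filaments, by 3.82 ± 0.21, with differences from control of 0.99 ± 0.19 and 1.45 ± 0.30. For all 4 genes the arrays of TSA-treated cells at 48 h lay above those at 24 h. Mybph, a myosin-binding protein, reached 23258 and 21180.0 in TSA-treated cells at 48 h, against 1596 and 1728 at 24 h, above the 19070.0 and 20130.0 of control cells at 48 h. Its change of 3.63 ± 0.14 was larger than in control cells by 1.15 ± 0.20, with the TSA arrays at 24 h below the control values of 3394 and 3358. Myl1, the fast alkali light chain, rose by 2.54 ± 0.29 in TSA-treated cells, and its difference from control of 0.85 ± 0.42 did not pass (adjusted p 0.249). The probe set of Myh7, slow myosin heavy chain, was listed at or below 0 on both 24 h arrays of TSA-treated cells (-577 and -575) and of control cells (-339 and -584), and at 6572 and 5402 in TSA-treated cells at 48 h, against 557 and 504 in control cells at 48 h. No fold is given where a group is at or below 0, and p can be too small there. The family suffix of this probe set marks probes that may also bind related myosins. A second probe set of Myh7 had a mean of -232 over the 20 arrays and was not tested.

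Thin filament genes, which encode actins, tropomyosins and the troponin complex, showed the same direction, with 11 of 12 tested higher and 1 lower and a median change of 2.38, against a control median of 0.92. Acta1, skeletal alpha-actin, had 34800.0 and 28617 in TSA-treated cells at 48 h, against 2398 and 3206 at 24 h, and 19919 and 20049 in control cells at 48 h, against 6566 and 5824 at 24 h. TSA-treated cells were below control cells at 24 h and above them at 48 h on every array. The change was 3.44 ± 0.27 in TSA-treated cells (adjusted p 3.01e-06) and 1.67 ± 0.27 in control cells. The difference of 1.77 ± 0.38 passed (adjusted p 0.0129), but missed the threshold with a pseudocount at the 30th percentile (adjusted p 0.0864). Tnnc1, troponin C of slow and cardiac muscle, changed by 4.21 ± 0.26 in TSA-treated cells, from arrays of 30927 and 25513 at 48 h, against 1485 and 1288 at 24 h. Control cells changed by 2.21 ± 0.26 in this gene. Tnnt3, fast troponin T, had 13069 and 8461 in TSA-treated cells at 48 h, against 410.3 and 567 at 24 h, and 4601 and 4313 in control cells at 48 h, against 1215 and 1214 at 24 h. Its change of 4.10 ± 0.24 exceeded that of control cells by 2.34 ± 0.33 (adjusted p 0.00104). Actc1, the cardiac actin that embryonic skeletal muscle also makes, changed by 2.39 ± 0.14 in TSA-treated cells and by 0.58 ± 0.14 in control cells, in which it already stood at 16600.0 and 16280.0 at 24 h, against 5564 and 5800.0 in TSA-treated cells at that time. This probe set of Actc1 has the family suffix, which marks probes that may also bind related actins. A second probe set of Actc1 changed by 4.07 with TSA, and its difference from control was 3.13, against 1.82 on the first. Tnni1, slow troponin I, changed by 3.63 ± 0.34, and Tnni2, fast troponin I, by 2.37 ± 0.22, with groups that did not overlap. The member that fell was Tpm1, an alpha-tropomyosin chosen here after its values were seen, with 7338 and 8792 in TSA-treated cells at 48 h, against 16962 and 16095 at 24 h, a change of -1.03 ± 0.18 (adjusted p 0.00192). Tpm1 has muscle and non-muscle transcripts that 1 probe set may not tell apart.

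Calcium handling genes, which carry the membrane signal to the filaments, rose in 9 of 11 tested, none fell, and the median was 2.30, against 1.10 in control cells. Atp2a1, the calcium pump of fast muscle sarcoplasmic reticulum, had 12058 and 10991 in TSA-treated cells at 48 h, against 443 and 571 at 24 h, and 6809 and 4918 in control cells at 48 h, against 1782 and 1428 at 24 h. Its log2 change was 4.18 ± 0.21 in TSA-treated cells (adjusted p 3.52e-08) and 1.77 ± 0.21 in control cells, a difference of 2.41 ± 0.30 (adjusted p 0.000347). The order of the treatments thus turned between 24 h and 48 h for this pump as it did for Myh3 and Acta1. Ryr1, the calcium release channel, had 2363 and 2146 in TSA-treated cells at 48 h, against 300.3 and 400.1 at 24 h, a change of 2.30 ± 0.30. Cacna1s, the voltage sensor of the transverse tubule, changed by 3.80 ± 0.39 and Cacng1, its gamma subunit, by 1.41 ± 0.11. Cav3, the muscle caveolin of the surface membrane, was not in this list. It had 3891 and 3776 in TSA-treated cells at 48 h, against 20.9 and 30 at 24 h. Cav3 changed by 4.61 ± 0.13, which exceeded control cells by 2.39 ± 0.19 (adjusted p 1.06e-05). With a pseudocount at the 30th and 50th percentile the change of Cav3 was 5.68 and 3.80, so its size is no fold. A second probe set of Cav3 gave a TSA change of 4.65. Atp2a2, the calcium pump of slow muscle, was listed at or below 0 in TSA-treated cells at 24 h (-17.9 and -11.3) and at 3076 and 2754 at 48 h, against 643 and -112 in control cells at 48 h.

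**Figure D2:**
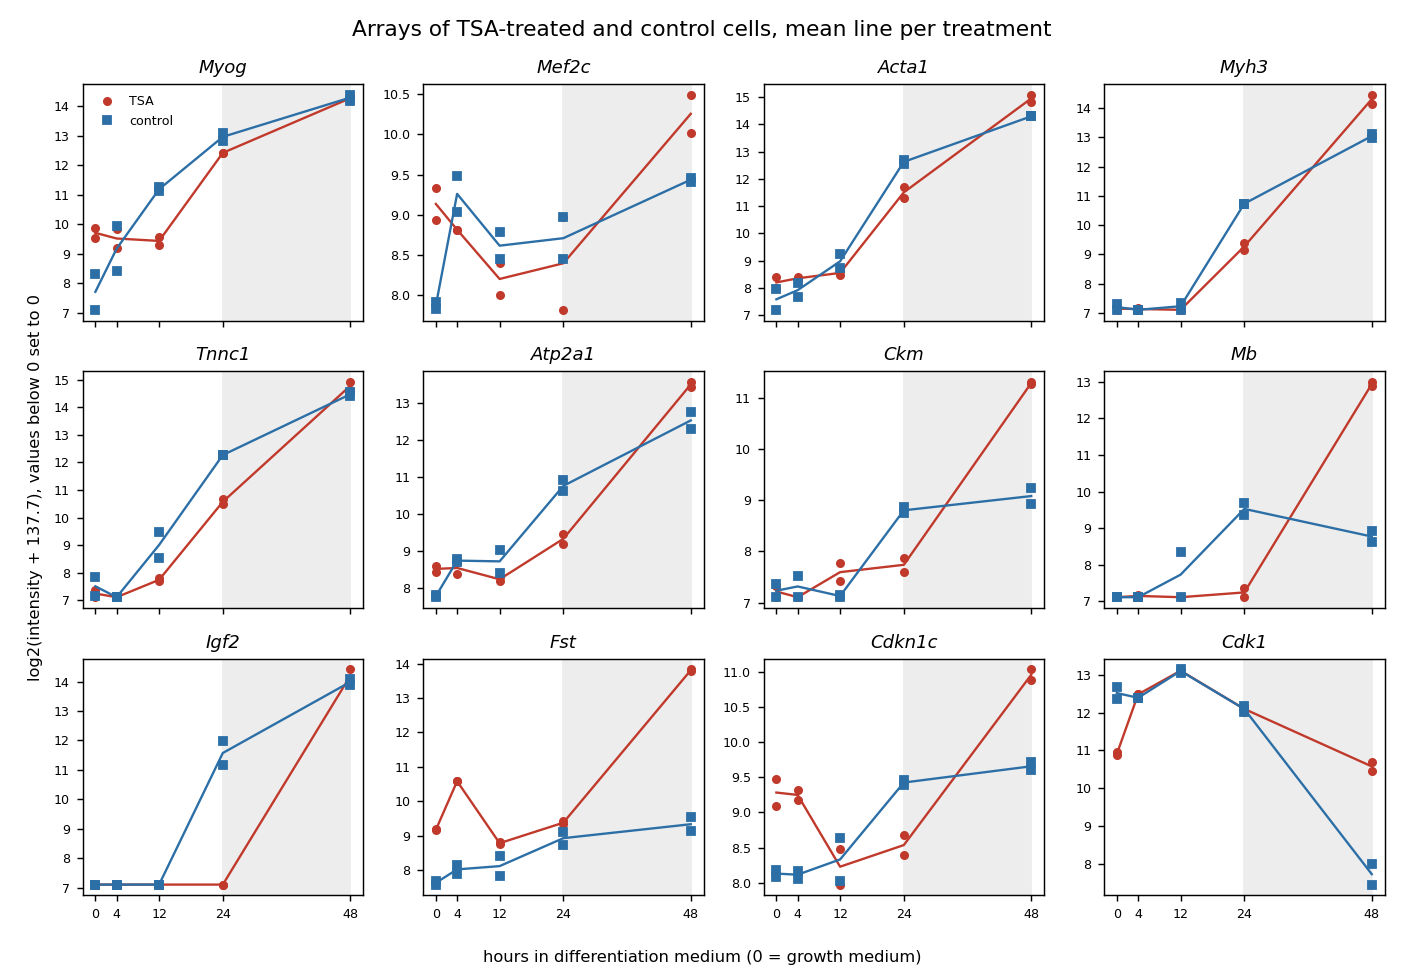
Each panel shows 1 gene, with hours in differentiation medium on the x axis and log2(intensity + 137.7), values below 0 set to 0, on the y axis. Points are arrays and lines join group means, TSA-treated cells in red and control cells in blue. Myh3, Acta1, Tnnc1 and Atp2a1 lie below control cells at 24 h and above them at 48 h, Fst lies far above control cells at 48 h, and Cdk1 stays higher in TSA-treated cells than in control cells at 48 h.

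Promoters of 5 muscle-list genes that rose are shown because each holds an E-box of the form CAGCTG, which myogenic factors bind, and they were picked for holding it. Promoters of Myh3, Myl4, Tnnc1, Actc1 and Ryr1 held no CAGCTG in this window. The sequences are the 250 bases before the transcription start, 5′ to 3′ on the gene's strand, from RefSeq on GRCm38.p6. Capitals mark CAGCTG and, in Acta1, also a CArG box, the site that serum response factor binds. Atp2a1 lies on the minus strand (chr7:126463074-126463323), Cav3 on the plus strand (chr6:112459255-112459504), Mybph on the plus strand (chr1:134193198-134193447), Chrng on the plus strand (chr1:87205561-87205810) and Acta1 on the minus strand (chr8:123894776-123895025).
Atp2a1: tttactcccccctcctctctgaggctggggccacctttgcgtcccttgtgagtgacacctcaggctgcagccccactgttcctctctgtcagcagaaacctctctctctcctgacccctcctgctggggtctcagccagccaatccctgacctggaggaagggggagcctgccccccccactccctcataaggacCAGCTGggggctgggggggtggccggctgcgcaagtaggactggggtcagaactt
Cav3: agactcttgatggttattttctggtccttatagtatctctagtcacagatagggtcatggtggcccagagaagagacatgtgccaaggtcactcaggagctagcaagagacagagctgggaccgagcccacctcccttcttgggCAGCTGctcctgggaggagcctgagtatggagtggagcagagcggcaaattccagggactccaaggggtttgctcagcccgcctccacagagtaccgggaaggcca
Mybph: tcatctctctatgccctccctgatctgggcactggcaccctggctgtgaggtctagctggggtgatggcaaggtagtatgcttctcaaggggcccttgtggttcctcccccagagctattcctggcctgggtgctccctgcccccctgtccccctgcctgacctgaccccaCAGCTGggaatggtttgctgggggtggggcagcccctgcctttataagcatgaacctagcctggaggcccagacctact
Chrng: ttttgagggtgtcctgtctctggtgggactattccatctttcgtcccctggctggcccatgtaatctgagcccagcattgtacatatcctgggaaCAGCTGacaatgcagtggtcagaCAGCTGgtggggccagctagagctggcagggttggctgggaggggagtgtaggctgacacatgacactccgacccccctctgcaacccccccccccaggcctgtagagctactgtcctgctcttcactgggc
Acta1: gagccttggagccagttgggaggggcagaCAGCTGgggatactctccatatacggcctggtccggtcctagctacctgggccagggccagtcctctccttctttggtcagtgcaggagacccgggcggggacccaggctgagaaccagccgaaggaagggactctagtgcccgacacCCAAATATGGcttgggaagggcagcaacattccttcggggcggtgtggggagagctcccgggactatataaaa
The CAGCTG begins 55 bases before the start in Atp2a1, 106 in Cav3, 79 in Mybph, 155 and 132 in Chrng and 221 in Acta1, where the CArG box begins 73 bases before it. Promoters were found for 46 of 59 genes of the muscle lists that rose, with 62 start sites, and 23 of these promoters (37.1%) held CAGCTG on either strand. Among promoters of all genes tested the share was 11.5%, and 15.2% among those of all genes that rose. Muscle-list genes that were tested and did not rise had it in 10 of 26 promoters (38.5%), a share close to that of the muscle genes that rose. The looser form CANNTG, which includes every CAGCTG, was in 85.5% of the promoters of muscle-list genes that rose, in 76.9% of those of muscle-list genes that did not rise and in 57.2% of those of all genes tested. The CArG box was in 6.45% of the promoters of muscle-list genes that rose, in 11.5% of those that did not rise and in 1.41% of promoters of all genes tested. The MEF2 site was in 4.84% of the promoters of muscle-list genes that rose, in 19.2% of those that did not rise and in 1.36% of promoters of all genes tested. A match of letters is a description of the sequence, not a bound site.

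Genes that anchor the filaments and the membrane moved less. In the list of the Z-disc and muscle cytoskeleton 5 of 16 tested rose and none fell, with a median of 0.74. Ankrd2, a stretch-responsive protein of the sarcomere, changed by 2.81 ± 0.28 and Xirp1, an actin-binding protein of early myofibrils, by 1.33 ± 0.18. Hspb2, a small heat shock protein of muscle, had 9009 and 8832 in TSA-treated cells at 48 h, against 2665 and 2689.9 at 24 h, and changed by 1.69 ± 0.19. Fhl1, a LIM protein of muscle, had 4228 and 4103 in TSA-treated cells at 48 h, against 2438 and 2365 at 24 h, and 1476 and 1384 in control cells at 48 h, against 1871 and 1839 at 24 h, so its change exceeded that of control cells by 1.11 ± 0.13 (adjusted p 0.000302). Genes of the dystrophin complex, which ties the cytoskeleton to the matrix, rose in 6 of 11 tested, none fell, and the median was 0.95. Sgca, alpha-sarcoglycan, had 2296 and 2344 in TSA-treated cells at 48 h, against 344 and 575 at 24 h, a change of 2.07 ± 0.24, and Sspn, sarcospan, changed by 1.97 ± 0.28.

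At the neuromuscular junction, 5 of 12 genes tested rose and 1 fell, with a median of 0.53. Chrng, the gamma subunit of the fetal acetylcholine receptor, had 11237 and 8561 in TSA-treated cells at 48 h, against 1516 and 1402 at 24 h, and changed by 2.64 ± 0.23 (adjusted p 1.01e-05). Chrnb1, the beta subunit, had 3662 and 3199.7 in TSA-treated cells at 48 h, against 1845 and 1793 at 24 h, and 1193 and 1036 in control cells at 48 h, against 1502 and 1535 at 24 h. The subunit thus rose with TSA by 0.86 ± 0.18, and the difference from control cells was 1.27 ± 0.25 (adjusted p 0.00753). Chrnd, the delta subunit, rose by 0.67 ± 0.17 (adjusted p 0.0175), a call that was lost without TSA 24 h replicate 3 (adjusted p 0.0936), TSA 24 h replicate 2 (0.0586) or TSA 48 h replicate 1 (0.139). Chrna1, the alpha subunit, changed by 0.53 ± 0.25 and did not pass (adjusted p 0.188), but passed with the title suffix b as a covariate (0.0336) and without TSA 24 h replicate 2 (0.0402). The member that fell was Sema3a, a secreted guidance protein, by 0.66 ± 0.13.

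Muscle energy metabolism genes rose with TSA and mostly did not pass in control cells. Of its 16 genes tested, 14 rose with TSA and 1 fell, with a median of 2.01, while 3 rose and 1 fell in control cells, with a median of 0.26. The difference passed with a positive sign in 11 of 16, beside 4.71% of all probe sets. Mb, myoglobin, the oxygen store of muscle, had 7413 and 8048 in TSA-treated cells at 48 h, against -86.3 and 27.4 at 24 h, and 345 and 255 in control cells at 48 h, against 688 and 519 at 24 h. Its change was 5.70 ± 0.28 in TSA-treated cells (adjusted p 3.48e-08) and -0.76 ± 0.28 in control cells, and the difference of 6.46 ± 0.40 passed (adjusted p 1.09e-06). At 24 h TSA-treated cells were thus below control cells on both arrays, 1 of them below 0, and at 48 h they were far above. With a pseudocount at the 30th and 50th percentile the difference was 7.86 and 5.44, so its size is no fold. A second probe set of Mb had a mean of -33.0 over the 20 arrays and was not tested. Ckm, muscle creatine kinase, which rebuilds ATP from phosphocreatine, had 2394 and 2325 in TSA-treated cells at 48 h, against 96.7 and 56.6 at 24 h, and 346 and 468 in control cells at 48 h, against 292 and 326 at 24 h. TSA-treated cells changed by 3.55 ± 0.18 (adjusted p 3.52e-08), control cells by 0.28 ± 0.18, and the difference was 3.27 ± 0.25 (adjusted p 8.14e-06). Only 1 of the 2 probe sets of Ckm was bright enough to be tested, and its family suffix marks probes that may also bind related genes. Ckb, the brain form of creatine kinase and a gene chosen here after its values were seen, had 22364 and 18448 in TSA-treated cells at 48 h, against 5321 and 5481 at 24 h, and 1976 and 2253 in control cells at 48 h, against 5705 and 5158 at 24 h. The treatments moved in opposite directions, with changes of 1.88 ± 0.13 and -1.31 ± 0.13 and a difference of 3.19 ± 0.18 (adjusted p 5.27e-07). Pfkm, the muscle phosphofructokinase of glycolysis, had 5915 and 4541 in TSA-treated cells at 48 h, against 1128 and 1034 at 24 h, while control cells held 1767 and 1818 at 48 h, against 1742 and 1534 at 24 h. The difference for Pfkm was 2.0 ± 0.28 (adjusted p 0.000786). Adssl1, the muscle adenylosuccinate synthase, and Gys1, muscle glycogen synthase, both chosen after their values were seen, changed by 2.93 ± 0.18 and 1.35 ± 0.15 with TSA, with differences from control of 2.5 ± 0.25 and 1.51 ± 0.21.

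For 2 further genes of this list TSA-treated cells were listed at or below 0 on both 24 h arrays. Pygm, muscle glycogen phosphorylase, had 1747 and 1555 in TSA-treated cells at 48 h, against -14.3 and -24.8 at 24 h, and 699 and 537 in control cells at 48 h, against 229 and 129 at 24 h. Cox6a2, the muscle form of a cytochrome oxidase subunit, had 10349 and 10563 in TSA-treated cells at 48 h, against -177 and -384 at 24 h, and 12145 and 11238 in control cells at 48 h, against 1117 and 1119.7 at 24 h. At 48 h Cox6a2 was thus slightly lower with TSA than in control cells, whereas Pygm was higher. The gene of the list that fell was Car3, carbonic anhydrase of slow muscle, with 407 and 739.8 in TSA-treated cells at 48 h, against 2609.6 and 2614 at 24 h, and 72.2 and -44.4 in control cells at 48 h, against 143 and 189 at 24 h. Its change was -1.99 ± 0.48 (adjusted p 0.0126), and the call was lost without TSA 24 h replicate 2 (adjusted p 0.0585), TSA 24 h replicate 3 (0.0602) or TSA 48 h replicate 1 (0.0917) and with a pseudocount at the 30th percentile (0.0785). In oxidative phosphorylation 2 of 50 genes rose and none fell, beside 7.31% of all probe sets that rose and 9.54% that fell. The 2 that rose were Cox6a2 and Cox8b, both forms of cytochrome oxidase subunits found in muscle, so the other respiratory chain genes did not pass.

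Set against control cells at each time, TSA-treated cells were mostly above at 48 h and mostly below at 24 h in 5 of the 7 muscle lists. TSA-treated cells were below control cells at 48 h in 1 of 12 thick filament genes, against 10 of 12 at 24 h, and in 1 of 12 thin filament genes, against 9 of 12 at 24 h. For calcium handling the counts were 2 of 11 at 48 h, against 10 of 11 at 24 h, and for energy metabolism 1 of 16 at 48 h, against 11 of 16 at 24 h. Dystrophin complex genes were below control cells in 3 of 11 at 48 h, against 7 of 11 at 24 h. The Z-disc and neuromuscular junction lists did not show this turn. Z-disc genes were below control cells in 4 of 16 at 48 h, against 4 of 16 at 24 h, and neuromuscular junction genes in 5 of 12 at 48 h, against 6 of 12 at 24 h. Their median log2 values of TSA over control at 24 h were 0.23 and 0.026. Among all 7453 probe sets TSA-treated cells were below control cells in 3908 at 48 h, against 3689 at 24 h. The median log2 value of TSA over control was 0.69 at 48 h, against -0.92 at 24 h, for thin filament genes, and 1.23 at 48 h, against -0.41 at 24 h, for energy metabolism, while that of all probe sets was -0.028 at 48 h, against 0.0026 at 24 h. For thick filament genes it was 0.44 at 48 h, against -0.58 at 24 h, and for calcium handling 0.66, against -0.18. For the dystrophin complex it was 0.38 at 48 h, against -0.078 at 24 h, which is close to 0. The counts use the sign alone, so genes next to 0 at 24 h, such as Ryr1 (-0.0099) and Ckb (-0.0064), count as below. These counts use the same arrays as the differences above and carry no separate test.

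**Figure D3:**
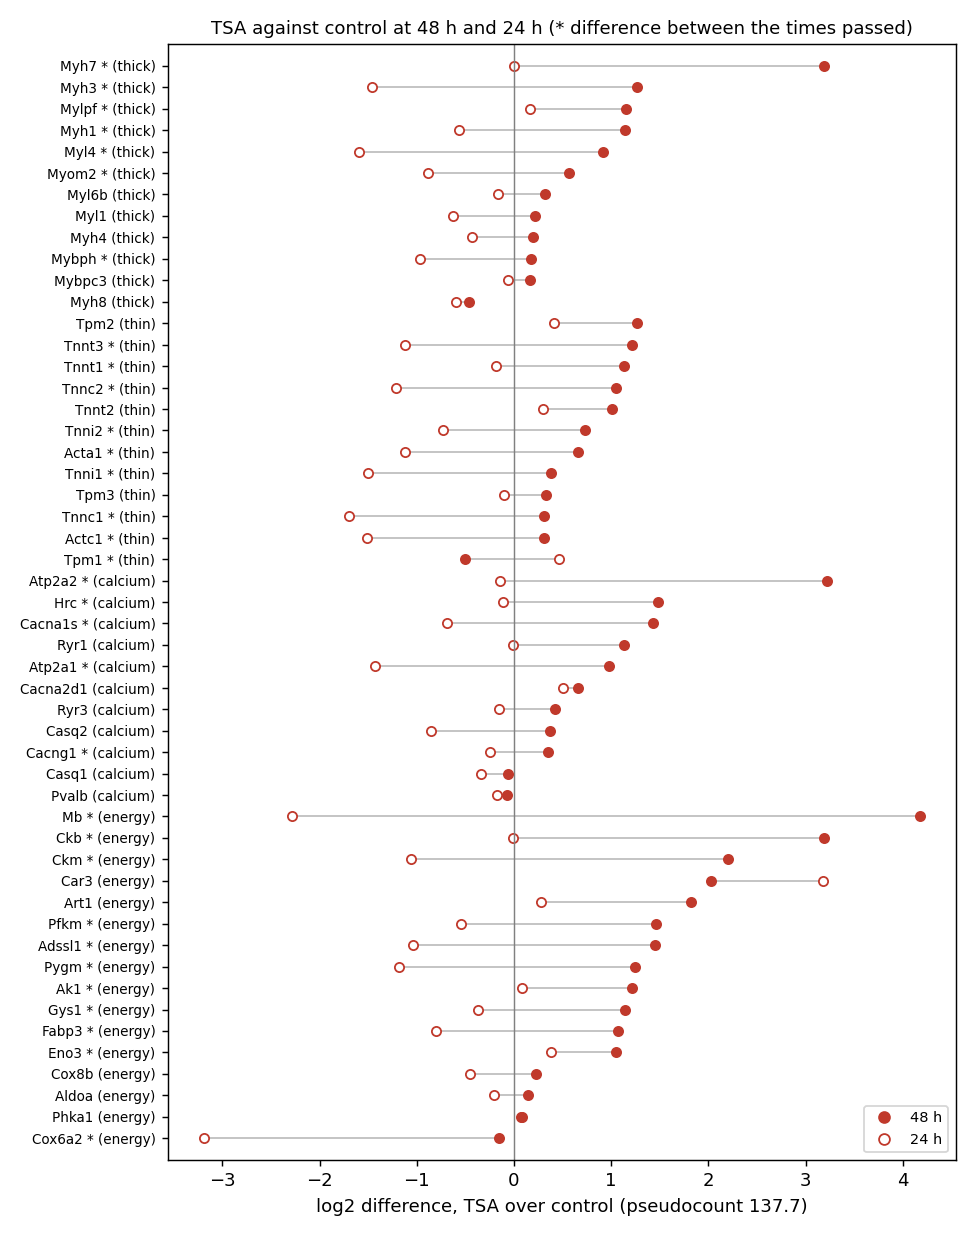
Each row is a gene, the x axis is the log2 difference of TSA-treated over control cells, the filled point is 48 h and the open point 24 h, and an asterisk marks genes whose change differed between treatments. Most muscle genes have the open point left of 0 and the filled point right of 0.

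Myogenic transcription factors changed by less than the filament lists did. Of 18 myogenic factors tested, 7 rose and none fell, with a median of 0.35. The difference from control cells passed with a positive sign in none and with a negative sign in 1. Myog, myogenin, which starts terminal differentiation, had 18767 and 20797 in TSA-treated cells at 48 h, against 5388 and 5350.0 at 24 h, and 18686 and 21516 in control cells at 48 h, against 7210.0 and 8627 at 24 h. Its levels at 48 h lay within the range of control cells, and its change of 1.85 ± 0.44 passed (adjusted p 0.0107), while the difference from control of 0.52 ± 0.62 did not (adjusted p 0.676). The call of the change was lost without TSA 24 h replicate 2, TSA 24 h replicate 3 or TSA 48 h replicate 2. It was also lost with a pseudocount at the 30th percentile (adjusted p 0.0634). It was kept in the fits of only the groups compared and of only the 24 h and 48 h groups. The spread is pooled over 10 groups, and control arrays of Myog differed widely at 0 h (-40.8 and 183) and 4 h (203 and 849). Myod1, the factor that commits cells to the muscle lineage, had 3875 and 4087 in TSA-treated cells at 48 h, against 3494 and 3577 at 24 h, a change of 0.16 ± 0.11 that did not pass (adjusted p 0.348). Of the MEF2 family, which works with myogenin, Mef2c changed by 1.86 ± 0.33, Mef2d by 1.26 ± 0.16 and Mef2a by 0.99 ± 0.16, and all 3 passed. Mef2c had 1306 and 899 in TSA-treated cells at 48 h, against 87.8 and 365 at 24 h, and 542 and 568 in control cells at 48 h, against 211 and 363 at 24 h. Smyd1, a muscle methyltransferase needed for myofibrils, had 1877 and 1336 in TSA-treated cells at 48 h, against 124 and 80.4 at 24 h, and changed by 2.85 ± 0.38 (adjusted p 0.000264). Klf5, a zinc finger factor, changed by 1.47 ± 0.17.

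Among 17 inhibitors of differentiation tested, 1 rose and 4 fell. Hmga2, a chromatin protein of proliferating precursors, had 202 and 274 in TSA-treated cells at 48 h, against 1187 and 1062 at 24 h, and 237 and 236 in control cells at 48 h, against 376 and 303 at 24 h. It was above control cells at 24 h and overlapped them at 48 h, with a change of -1.75 ± 0.13 and a difference from control of -1.41 ± 0.18 (adjusted p 0.00044). Hes1, a repressor driven by Notch, fell by 0.85 ± 0.17. Bhlhe40, a repressor of the clock and stress type, was the member that rose, with 3879.5 and 4206 in TSA-treated cells at 48 h, against 1914 and 1780.2 at 24 h, and a difference from control of 1.20 ± 0.22. Without TSA 48 h replicate 1, 2 of the 17 fell. In the fusion and adhesion list 7 of 20 rose and 1 fell, and 4 rose without TSA 24 h replicate 2 or without TSA 48 h replicate 2. Without TSA 48 h replicate 1, 4 genes of this list fell, and 2 fell without TSA 24 h replicate 3. Bin1, which shapes the transverse tubules, had 23165 and 23341 in TSA-treated cells at 48 h, against 10359 and 9204 at 24 h, and rose by 1.24 ± 0.12, and Jam3, a junction molecule, rose by 1.72 ± 0.31. Vcam1, an adhesion molecule of myoblasts, was the member that fell with all arrays, with 670.0 and 785 in TSA-treated cells at 48 h, against 1611 and 1912 at 24 h, and 1665 and 1968 in control cells at 48 h, against 1560.2 and 1774 at 24 h, a difference of -1.25 ± 0.18 (adjusted p 0.0011).

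Genes of cell cycle exit changed in both directions, 4 of 21 higher and 3 lower. Cdkn1c, the inhibitor p57, had 1956 and 1746 in TSA-treated cells at 48 h, against 272 and 199 at 24 h, and 636 and 703 in control cells at 48 h, against 566 and 534 at 24 h. It was below control cells at 24 h and above them at 48 h, with a change of 2.42 ± 0.21 (adjusted p 1.01e-05) and a difference of 2.19 ± 0.30 (adjusted p 0.000824). Rb1, the retinoblastoma protein, rose by 1.56 ± 0.20 on its brighter probe set, and its other probe set gave -0.68 and did not pass. Cdkn1a, the inhibitor p21, had 19452 and 15242 in TSA-treated cells at 48 h, against 7822 and 7456 at 24 h, a change of 1.16 ± 0.54 that did not pass (adjusted p 0.181), while a second probe set gave 0.62 and passed (adjusted p 0.035). The first probe set passed when only the 24 h and 48 h groups were fitted (adjusted p 0.0155), but not with only the TSA groups compared. Ccnd1, cyclin D1, which drives entry into the cycle, fell by 1.20 ± 0.23 with TSA and by 1.23 ± 0.23 in control cells, and Cdk4, its partner kinase, fell by 0.61 ± 0.11 with TSA.

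Mitosis genes fell in TSA-treated cells, though by less than in control cells. Of 41 tested, 34 fell and none rose with TSA, with a median of -0.99, beside 9.54% of all probe sets that fell, and 38 fell in control cells, with a median of -2.27. The difference passed with a positive sign in 23 of 41. Cdk1, the kinase that starts mitosis, had 1270.5 and 1521 in TSA-treated cells at 48 h, against 4495 and 3999 at 24 h, and 37.8 and 119.6 in control cells at 48 h, against 4466 and 4011 at 24 h. The treatments overlapped at 24 h, and at 48 h all TSA arrays were above all control arrays, with changes of -1.52 ± 0.17 and -4.36 ± 0.17 and a difference of 2.84 ± 0.24 (adjusted p 1.41e-05). Mki67, the proliferation antigen, and Anln, a scaffold of the contractile ring, both chosen after their values were seen, followed the same pattern. Mki67 had 794 and 748 in TSA-treated cells at 48 h, against 1844 and 1659.8 at 24 h, and 152 and 139 in control cells at 48 h, against 1622 and 1608 at 24 h. Anln had 1477 and 1719.8 in TSA-treated cells at 48 h, against 3177 and 2924 at 24 h, and 274 and 251 in control cells at 48 h, against 3474 and 3789 at 24 h. Their differences from control were 1.58 ± 0.20 and 2.35 ± 0.21. Aurka, a kinase of the spindle poles, changed by -1.37 ± 0.13 with TSA and differed from control by 1.02 ± 0.19 (adjusted p 0.00538). The median of the list, TSA over control, was 1.13 at 48 h, against 0.0079 at 24 h.

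DNA replication genes fell in 27 of 41 tested with TSA and in 28 of 41 in control cells, with medians of -0.87 and -1.06. Leaving out 1 of the 4 TSA arrays left 18 to 24 of the 41 lower with TSA. Rrm1, a subunit of ribonucleotide reductase, had 945 and 679 in TSA-treated cells at 48 h, against 3946 and 3370.3 at 24 h, and -7.83 and 198 in control cells at 48 h, against 1752 and 1365 at 24 h. The change was -2.01 ± 0.31 with TSA (adjusted p 0.000807), with arrays at 24 h above those of control cells. Uhrf1, which keeps DNA methylation after replication, fell by 1.49 ± 0.19 and Mcm7, a part of the replicative helicase, by 1.29 ± 0.16.

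Fst, follistatin, which binds and blocks myostatin and activins, had 13962 and 14450.0 in TSA-treated cells at 48 h, against 504 and 548 at 24 h, and 419 and 605 in control cells at 48 h, against 415 and 289 at 24 h. It rose in TSA-treated cells by 4.43 ± 0.19 (adjusted p 7.85e-09), and the difference from control cells, in which it stayed dim, was 4.03 ± 0.27 (adjusted p 2.42e-06). Mstn, myostatin itself, changed by -0.01 ± 0.34 in TSA-treated cells and did not pass. In the TGF-beta family 4 of 29 rose and 1 fell, beside 7.31% of all probe sets that rose and 9.54% that fell. Tgfb3, a ligand, had 5689 and 5795 in TSA-treated cells at 48 h, against 1773 and 2202 at 24 h, and changed by 1.48 ± 0.13, and Tgfbr3, a coreceptor, changed by 1.67 ± 0.19, with differences from control of 1.06 ± 0.19 and 1.92 ± 0.27.

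The insulin-like growth factor axis had 5 of 19 genes higher and 1 lower. Igf2, the growth factor that muscle cells make for themselves during differentiation, was listed at 21671 and 15889 in TSA-treated cells at 48 h, against -25.7 and -231 at 24 h, and at 15036 and 17199 in control cells at 48 h, against 3877 and 2176 at 24 h. It was thus at or below 0 with TSA at 24 h, where control cells already had a clear signal, and overlapped control cells at 48 h. A second probe set of Igf2 had a mean of -116 over the 20 arrays and was not tested. Igfbp2, a binding protein that limits these factors, had 2545 and 2370.2 in TSA-treated cells at 48 h, against 10496 and 9219.5 at 24 h, and fell by 1.94 ± 0.12. Mest, an imprinted gene of embryonic mesoderm, had 2492 and 2068 in TSA-treated cells at 48 h, against 1158 and 908 at 24 h, and 689 and 939.6 in control cells at 48 h, against 1209 and 1321 at 24 h, a difference of 1.62 ± 0.26 (adjusted p 0.00209). Akt1, the kinase downstream of the receptor, rose by 0.73 ± 0.14.

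Glycolysis and hypoxia response genes rose in TSA-treated cells and fell in control cells. Of 22 tested, 12 rose and none fell with TSA, with a median of 0.47, whereas none rose and 11 fell in control cells, with a median of -0.61, and the difference passed with a positive sign in 13. Pdk1, which keeps pyruvate out of the mitochondrion, had 1585 and 1397 in TSA-treated cells at 48 h, against 766 and 575 at 24 h, and 635 and 572 in control cells at 48 h, against 2265 and 2742 at 24 h. TSA-treated cells were below control cells on every array at 24 h and above them on every array at 48 h, with a difference in change of 2.85 ± 0.20 (adjusted p 3.11e-06). Bnip3, a mitophagy receptor, and Tpi1, an enzyme of glycolysis, were chosen after their values were seen. Bnip3 had 982 and 785 in TSA-treated cells at 48 h, against 315 and 371 at 24 h, and 443 and 250.1 in control cells at 48 h, against 1406 and 1561 at 24 h, and Tpi1 differed from control by 1.29 ± 0.19. Ndrg1, a gene induced by low oxygen, had 2088 and 1388 in TSA-treated cells at 48 h, against 556 and 701 at 24 h, and 3308 and 3687 in control cells at 48 h, against 6297 and 6548 at 24 h. Ndrg1 rose with TSA but remained below control cells at both times, with a difference in change of 2.13 ± 0.24 (adjusted p 0.000198). Vegfa, the vascular growth factor, rose by 1.59 ± 0.23 with TSA and was also below control cells at both times, with 2742 and 2276 in TSA-treated cells at 48 h, against 4626 and 3961 in control cells at 48 h. At 12 h control cells had 804 and 760 for Pdk1, 396 and 334 for Bnip3 and 959 and 857 for Ndrg1. The fall of these genes in control cells thus started from a peak at 24 h, on which their differences in change partly rest. Ldha was already at 24724 and 25377 in control cells at 12 h, and Vegfa, Hk2 and Pfkm did not fall there after 24 h. P4ha1 and P4ha2, prolyl hydroxylases that modify collagen and that low oxygen induces, differed from control by 1.62 ± 0.21 and 1.87 ± 0.18. Leaving out 1 array of the comparison left 7 to 11 of the 22 higher with TSA, the fewest without TSA 24 h replicate 3. Across the list TSA-treated cells were below control cells in 5 of 22 genes at 48 h, against 19 of 22 at 24 h. Among all 7453 probe sets the counts were 3908 at 48 h and 3689 at 24 h.

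**Figure D4:**
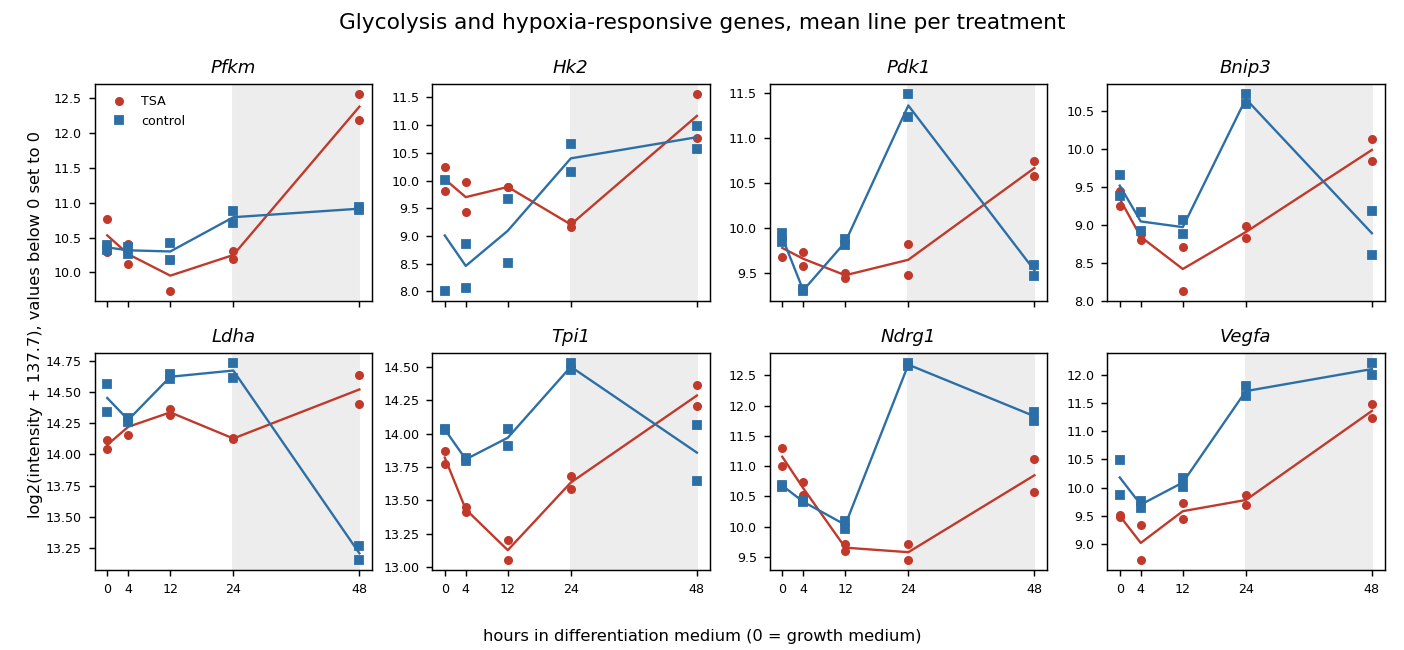
Panels show 8 genes of glycolysis and the hypoxia response, with hours in differentiation medium on the x axis and log2(intensity + 137.7), values below 0 set to 0, on the y axis, points for arrays and lines for means of TSA-treated cells (red) and control cells (blue). Hk2, Bnip3, Ldha and Tpi1 were chosen after their values were seen. Pdk1 and Bnip3 are below control cells at 24 h and above them at 48 h, and Ndrg1 and Vegfa are below control cells at both times.

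Genes that answer stress of the endoplasmic reticulum or a lack of amino acids had 11 of 29 genes higher and 4 lower, and 1 lower without TSA 24 h replicate 2, TSA 24 h replicate 3 or TSA 48 h replicate 2. Herpud1, which helps degrade misfolded proteins, had 7406 and 8854 in TSA-treated cells at 48 h, against 2341 and 2622 at 24 h, and 5879 and 5843 in control cells at 48 h, against 4303 and 5098 at 24 h, a difference of 1.34 ± 0.19 (adjusted p 0.00104). Slc3a2 and Slc7a5, which together form an amino acid transporter, rose by 0.96 ± 0.11 and 1.25 ± 0.17, and Nupr1, a stress-induced nuclear protein, by 1.43 ± 0.17. Ddit3, the stress factor CHOP, which was chosen after its values were seen, rose by 1.69 ± 0.34, but at 1408 and 1083 in TSA-treated cells at 48 h it stayed far below the 8105 and 8707 of control cells at 48 h. Pdia4, a chaperone of the reticulum also chosen after its values were seen, fell by 0.93 ± 0.16, so members of the list moved both ways.

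Sterol and lipid synthesis genes had 3 of 22 higher and 4 lower with TSA, with a median of -0.20, while none rose and 13 fell in control cells, with a median of -0.79. The difference passed with a positive sign in 11 of 22, in 5 without TSA 48 h replicate 1, in 6 without TSA 24 h replicate 3, and in 7 without TSA 24 h replicate 2 or without control 24 h replicate 3. The 3 and 4 calls in TSA-treated cells fell to at most 2 in each direction when any 1 of the 4 TSA arrays was left out. Scd1, a fatty acid desaturase, rose by 0.59 ± 0.12 (adjusted p 0.00563), a call lost without TSA 24 h replicate 2 (adjusted p 0.0522). Ribosome biogenesis showed the opposite balance, with none of 30 higher and 6 lower with TSA and 6 higher and none lower in control cells. Leaving out TSA 24 h replicate 2, TSA 48 h replicate 1 or TSA 24 h replicate 3 left 1, 2 and 3 of these 30 lower with TSA, and leaving out control 24 h replicate 2 or control 48 h replicate 2 left 3 higher in control cells. TSA-treated cells were below control cells in 22 of these 30 genes at 48 h, against 5 of 30 at 24 h. Among all 7453 probe sets the counts were 3908 at 48 h and 3689 at 24 h.

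Extracellular matrix genes had 10 of 45 higher and 5 lower. Without TSA 48 h replicate 1 there were 5 higher, without TSA 24 h replicate 3 there were 6 higher and 1 lower, and without TSA 24 h replicate 2 or TSA 48 h replicate 2 there were 2 lower. Ccn2, a matrix signalling protein, had 339 and 424 in TSA-treated cells at 48 h, against 85.9 and 25.8 at 24 h, and was listed below 0 in control cells at both times. Timp1, an inhibitor of matrix proteases chosen after its values were seen, had 10229 and 9214 in TSA-treated cells at 48 h, against 18247 and 17677 at 24 h, and fell by 0.88 ± 0.16. Mgp, matrix Gla protein, which holds back calcification, fell by 2.28 ± 0.21, with 2870.4 and 3140.5 in TSA-treated cells at 48 h, against 17768 and 12922 at 24 h. Eps8, an adaptor that caps actin filaments, had 155 and 38.6 in TSA-treated cells at 48 h, against 1100.5 and 1383 at 24 h, and 402 and 319 in control cells at 48 h, against 926 and 765 at 24 h, and its difference of -1.61 ± 0.29 passed (adjusted p 0.00496).

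Stress and immune genes gave mixed counts, beside 7.31% of all probe sets that rose and 9.54% that fell. Mt1 and Mt2, metallothioneins that bind zinc and other metals, fell by 1.71 ± 0.23 and 1.56 ± 0.17, with Mt1 at 4644 and 5198 in TSA-treated cells at 48 h, against 15734 and 16984 at 24 h, and at 6647 and 7684 in control cells at 48 h, against 16823 and 15309 at 24 h. Heat shock chaperones had 3 of 25 higher and 7 lower, with 3 lower without TSA 24 h replicate 2 and 4 without TSA 24 h replicate 3 or TSA 48 h replicate 1. The oxidative stress list, which holds the metallothioneins, had 1 of 28 higher and 3 lower, near the shares of all probe sets. In the interferon list 1 of 15 rose and 3 fell, and 1 fell without TSA 48 h replicate 1. Ifitm3, a membrane protein of that response, had 5897 and 5971 in TSA-treated cells at 48 h, against 13716 and 11834 at 24 h, and 13422 and 16411 in control cells at 48 h, against 9028 and 7343 at 24 h, so the treatments moved in opposite directions (difference -1.94 ± 0.23, adjusted p 0.00031). Chemokines and cytokines had none of 11 higher and 3 lower, among them Csf1, the macrophage growth factor, which fell by 0.79 ± 0.12. Among immediate early genes Klf4, a zinc finger factor, had 1449 and 1561 in TSA-treated cells at 48 h, against 297 and 389.5 at 24 h, and differed from control by 1.55 ± 0.26. Immediate early genes, proteasome genes, p53 targets, fatty acid oxidation genes and the deacetylases themselves had at most 3 members called in either direction with all arrays. Without TSA 24 h replicate 2, 6 of 35 genes of the proteasome and protein turnover list rose, and without TSA 24 h replicate 3 or TSA 48 h replicate 2, 1 of 22 fatty acid oxidation genes rose, against 3 with all arrays. In a list of genes that deacetylase inhibitors change in other cell types, 3 of 10 rose and 4 fell, with 2 lower without TSA 24 h replicate 2, TSA 24 h replicate 3 or TSA 48 h replicate 2. The 3 that rose were Fst, Cdkn1c and Ccn2.

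The labelled cell type was set against its defining markers. Of 12 defining genes of skeletal muscle, 8 rose with TSA and none fell, and their summed intensity was 165210 and 137920 in TSA-treated cells at 48 h, against 35198 and 32221 at 24 h, beside 100370 and 106840 in control cells at 48 h, against 41390 and 39532 at 24 h. None of the 12 was at or below 0 on both arrays of TSA-treated cells at either time. Smooth muscle markers, which C2C12 cells partly share, had none of 9 tested higher and 3 lower (1 lower without TSA 24 h replicate 2 or TSA 48 h replicate 2), and a summed intensity of 41062 and 41347 in TSA-treated cells at 48 h, against 48262 and 34359 at 24 h. Their sum was 21798 and 27087 in control cells at 48 h, against 28700 and 25774 at 24 h. Cnn2, a calponin, fell by 0.99 ± 0.16 with TSA, and Myl9, a regulatory light chain of smooth and non-muscle cells, had 5346 and 5004 in TSA-treated cells at 48 h, against 357 and 514 in control cells at 48 h. Acta2, smooth muscle actin, went the other way. Its change with TSA was positive but did not pass with all arrays, and was 1.12 without TSA 24 h replicate 2. Neuron and glia markers had 1 of 9 tested higher and 1 lower, with sums of 16831 and 12640 in TSA-treated cells at 48 h, against 14459 and 13066 at 24 h. Few markers of the remaining types passed the filter on dim probe sets, 3 for adipocytes, 6 for bone and cartilage, 5 for leukocytes and 2 for endothelium, and none of these passed the test. Of the leukocyte markers 5 of 15 on the array were at or below 0 on both TSA arrays at 48 h and 5 at 24 h, and of the 12 endothelial markers 4 at 48 h and 6 at 24 h. The part of other cell types in the results was not tested.

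Several of the largest falls of single probe sets were of genes that were dim at 48 h. Tarbp2, a partner of Dicer in small RNA processing, had 119.7 and 22.3 in TSA-treated cells at 48 h, against 799 and 1273 at 24 h, and Chmp6, a membrane remodelling protein, had 52.6 and -197 at 48 h, against 965 and 1486 at 24 h. Their changes were -2.5 ± 0.46 and -3.05 ± 0.46. Slpi, a protease inhibitor, fell by 2.51 ± 0.54 on its brightest probe set, with -3.3 and 701 in TSA-treated cells at 48 h, against 1688 and 1923 at 24 h, but its other tested probe sets gave 0.19 and -0.43 and did not pass. The 2 arrays at 48 h differed widely for Slpi, which limits what its value shows. Chchd10, a mitochondrial protein, rose by 2.30 ± 0.51 (adjusted p 0.00767) but had 1819 and 1873 in TSA-treated cells at 48 h, far below the 14094 and 16726 of control cells at 48 h. Without TSA 24 h replicate 3 its adjusted p was 0.08.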

How the data were processed

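RNA of 20 arrays of the TSA arm was analysed, with groups taken from the treatment and hour in the labels. The values the authors deposited are linear intensities for each probe set, some below 0, with arrays scaled to a common trimmed mean. The tool behind them was not given in the sources used here. Arrays of the series outside this arm were not used here. The table had 12488 probe sets. Without 66 Affymetrix controls, 10833 of the remaining 12422 mapped to 1 gene symbol of the platform annotation, 396 to several and 1193 to none. Of the symbols, 10817 were matched through Entrez identifiers, which gave 8251 genes.

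Values below 0 were set to 0, the 40th percentile of all values (137.7) was added and log2 taken, which compresses changes of dim probe sets. Probe sets with a mean of at least 144.9 were tested, 7453 in all. limma 3.58.1 in R 4.3.3 (lmFit, eBayes) was fitted with 1 mean for each of 10 groups (10 residual degrees of freedom, prior 2.45), with two-sided tests, Benjamini-Hochberg adjustment and a threshold of 0.05. Contrasts were TSA 48 h against 24 h, control 48 h against 24 h and their difference. Where both arrays of a compared group are at or below 0, the group has no spread, p can be too low and a fold is not given. Groups at 0, 4 and 12 h enter the same estimate of spread. For genes at or near 0 at those times, such as Myh3, Mb and Igf2, p can be too low as well. At an unadjusted p under 0.05, 2125 probe sets differed in TSA-treated cells.

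The members and the 38 lists (1056 genes, 845 on the array) were chosen with earlier results of these data known. Genes were named by rule: the largest changes of the TSA comparison in each direction with arrays that do not overlap, up to 4 members of smallest p of each list, a set of fixed muscle and cell cycle genes, and the 6 largest differences in each direction. Not all are printed, and genes outside the rule are marked. The fit was tested on simulated data with known changes. The labels do not say that replicate numbers or title suffixes pair samples, so the fit has no block. The alternatives were other normalizations, pseudocounts, filters, variance estimates, samples in the fit, a replicate block, a covariate for the title suffix b and leaving out each array. Promoters were read from a RefSeq table on GRCm38.p6. Figures were drawn with matplotlib 3.10.9 under Python 3.11.15.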

Additional observations from a re-analysis of the deposited data

Results flagged for a closer look

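For 12 genes the change over the second day differed between TSA-treated and control cells by the direct test in limma, and these are the largest such differences in each direction, TSA minus control on the log2 scale. Among the positive ones, Mb had 6.46, Igf2 4.67 and Fst 4.03, and their values by array are given with the energy, growth factor and TGF-beta genes. Igf2 was listed below 0 on both arrays of TSA-treated cells at 24 h and Mb on 1, with a mean below 0, so the sizes of both depend on the pseudocount, are no fold and have no order. Mb had 7.86 and 5.44 and Igf2 6.09 and 3.77 with a pseudocount at the 30th and 50th percentile. The calls of these 3 held when any 1 array was left out. For Igf2 and Mb this does not settle how small p is. At 0, 4 and 12 h Igf2 was below 0 on every array of both treatments, and Mb on most. These groups add little or no spread to the shared estimate, so p can be too small whichever array is left out.

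The other positive differences rested on dim probe sets. Ephb3, an ephrin receptor, had 4.25, with 1555 and 1683 in TSA-treated cells at 48 h, against 252 and 45 at 24 h, and -108 and 884 in control cells at 48 h, against 1068 and 836 at 24 h. Its adjusted p was 0.0357, and between 0.0712 and 0.12 without control 48 h replicate 1, either control 24 h array, TSA 24 h replicate 3 or either TSA 48 h array. Flot1, a membrane scaffold protein, had 3.66, with 471 and 929 in TSA-treated cells at 48 h, against -246 and 256 at 24 h, and an adjusted p of 0.0335. Its adjusted p lay between 0.062 and 0.109 without either control 24 h array, control 48 h replicate 2, TSA 24 h replicate 2 or TSA 48 h replicate 2. Aurkb, a mitotic kinase, had 3.52 (adjusted p 0.0222), with both control arrays at 48 h below 0 (-117 and -1193), so the value is no fold. Without control 24 h replicate 2, control 48 h replicate 2, TSA 24 h replicate 3 or TSA 48 h replicate 2 its adjusted p lay between 0.0513 and 0.0874.

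Among the negative differences, Txnip, which binds thioredoxin and limits glucose uptake, had -2.83 (adjusted p 9.07e-05). It was listed at 544 and 636 in TSA-treated cells at 48 h, against 508 and 622 at 24 h, and at 3816 and 4261 in control cells at 48 h, against 415 and 441 at 24 h. A second probe set of Txnip had a difference near 0. Avil, advillin, an actin-binding protein, had -3.12, with 66.4 and 17.6 in TSA-treated cells at 48 h, against 55.4 and -164 at 24 h, and 1763 and 1935 in control cells at 48 h, against 178 and -77.4 at 24 h. Zfp622, a zinc finger protein, had -2.62, with 209 and 829.9 in TSA-treated cells at 48 h, against 666 and 869.6 at 24 h, and 1417 and 1289 in control cells at 48 h, against 309 and 179 at 24 h. The value of Avil is no fold, since 3 of its 4 groups averaged below the pseudocount. The calls of these 3 genes held when any 1 array was left out.

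Prkd2, a protein kinase, had -3.48 (adjusted p 0.0424), and its other tested probe set had the opposite sign, 1.36. Its control arrays at 24 h and the TSA arrays of Flot1 at 24 h averaged below the pseudocount, so these values are no fold either. Only leaving out control 24 h replicate 3 kept its call, and the other 7 gave adjusted p values of 0.0611 to 0.143. Tarbp2 had -2.77 (adjusted p 0.0216), and between 0.0503 and 0.0785 without control 48 h replicate 1, either control 24 h array, TSA 24 h replicate 3 or TSA 48 h replicate 2. Ccdc86, a nucleolar protein, had -2.76 (adjusted p 0.0424), with both control arrays at 24 h below 0 (-24.4 and -205), so the value is no fold. Without any 1 control array, TSA 24 h replicate 3 or TSA 48 h replicate 2 its adjusted p lay between 0.0559 and 0.147.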

How the results depend on the processing

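The comparison of TSA-treated cells, 48 h against 24 h, had 1200 to 1325 probe sets called under quantile normalization, median centring, pseudocounts at the 30th and 50th percentiles, no filter, a filter at the 60th percentile and variance estimation with a trend, with or without robust weights, against 1256 as reported. With the title suffix b as a covariate 1413 were called in TSA-treated cells, 1548 in control cells and 704 for the difference. With replicate numbers as a block, 917 probe sets were called in TSA-treated cells, 1102 in control cells and 555 for the difference. Of the numbers, only replicate 2 is shared by the TSA groups, and the deviations of those 2 arrays had a correlation of -0.123. A single such value cannot show whether the numbers pair the TSA groups. Deviations of same-numbered arrays had a correlation of 0.228 between TSA and control cells at 24 h, 0.296 between TSA-treated cells at 24 h and control cells at 48 h, and 0.236 between the control groups. Same-numbered arrays of TSA-treated cells at 48 h and control cells had negative values, -0.093 with control 24 h and -0.098 with control 48 h. With 2 arrays a group, the deviations of a group mirror each other. All 6 pairs of arrays with the suffix b were positive, at 0.093 to 0.296, but they repeat the values of the same-numbered pairs apart from sign. They are thus no separate evidence, and a pairing was not tested. Fitting only the groups compared left 159 calls in TSA-treated cells (110 higher, 49 lower) and 93 in control cells. Fitting only the 24 h and 48 h groups left 491 in TSA-treated cells (269 higher, 222 lower), 538 in control cells and 95 for the difference (76 higher, 19 lower), where fewer arrays give fewer degrees of freedom. Leaving out 1 array gave 816 to 999 calls in TSA-treated cells, fewest without TSA 24 h replicate 3, 876 to 1152 in control cells, with 876 without control 24 h replicate 2 and 893 without control 24 h replicate 3, and 396 to 591 for the difference, fewest without control 24 h replicate 2. A lone remaining array is then assumed to vary like the other groups. Of 137 called genes named by rule, 61 remained called in the fit of only the TSA groups compared, 99 in the fit of the 24 h and 48 h groups and 110 to 122 without single TSA arrays, and none changed sign.

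With only the 4 TSA arrays, 7 of 12 thick filament, 8 of 12 thin filament, 8 of 11 calcium handling and 8 of 16 energy metabolism genes rose, 4 of 41 mitosis and 5 of 41 DNA replication genes fell, and 2 of 22 glycolysis and hypoxia genes rose. Changes of dim probe sets are limited by signal over background. A change that did not pass is not shown to be absent.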

Other observations

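The whole time course sets the second day beside the first. Myog, myogenin, had mean intensities in TSA-treated cells of 709 ± 141, 615 ± 223, 559.9 ± 83.8, 5369 ± 27.2 and 19782 ± 1436 at 0, 4, 12, 24 and 48 h (SD, n = 2 each), and of 71.2 ± 158, 526 ± 457, 2208 ± 143, 7919 ± 1002 and 20101 ± 2002 in control cells at the same times. Both treatments thus had most of their myogenin at 48 h. Fst, follistatin, had means of 438 ± 7.67, 1393 ± 10.2, 301 ± 15.6, 526 ± 31.5 and 14206 ± 345 in TSA-treated cells at these times and of 59.9 ± 10.2, 122 ± 31.7, 144 ± 77.8, 352 ± 89.5 and 512 ± 131 in control cells. The level of Fst in TSA-treated cells at 48 h had no counterpart at any earlier time of either treatment. Cdkn1a, the inhibitor p21, had means of 1367 ± 391, 1931 ± 1264, 4664 ± 273, 7639 ± 258 and 17347 ± 2977 in TSA-treated cells and of 445 ± 349, 1226 ± 1044, 1364 ± 238, 3665 ± 248 and 11449 ± 415 in control cells. Hmga2 had means of 2252 ± 96, 2328 ± 169, 3339 ± 313, 1124 ± 88.4 and 238 ± 50.5 in TSA-treated cells and of 2949 ± 18.7, 4397 ± 179, 2330.4 ± 37.2, 339.5 ± 52.2 and 236 ± 0.248 in control cells. These values are given as a description, without a test.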
